A study of Mus musculus with 3 samples.

Results

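The heat shock proteins and chaperonins are the cell's main protein-folding machines, and their messenger RNAs were read here in the cytosol of mouse macrophages. The members were chosen by name from the gene annotation: protein-coding genes with symbols of the Hspa, Hspb, Hspd, Hspe, Hsph and Hsp90 series, the Dnaja, Dnajb and Dnajc series, Cct2 to Cct8 and Tcp1, leaving out Hspa5. The rule took 79 genes of the 55536 in the gene tables, 22028 of which were protein-coding, and all 79 were present in the tables. The naming rule itself uses no measured value.

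The series held 1 group of 3 libraries of total RNA, depleted of ribosomal RNA, from the cytosolic fraction of bone marrow-derived macrophages of C57BL/6J mice, which are phagocytes differentiated in culture from marrow. All 3 cultures had received 100 ng/ml lipid A (the part of bacterial lipopolysaccharide that the receptor Tlr4 senses) for 12 h, then 12 h without it, and were taken at 0 min of a second dose of 100 ng/ml. The labels number the libraries as replicates 1, 2 and 3 under the same donor identifier and give neither age nor sex. They do not say whether the cultures came from separate animals, so the SD over libraries may be technical. Untreated, single-dose and later samples are not analysed here, so the values are levels in this state and no effect of lipid A.

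The libraries of replicates 1, 2 and 3 held 28981178, 53119941 and 46783133 expected counts on gene rows. A gene with no count in a library could stand at up to 0.104, 0.0565 and 0.0641 CPM (counts scaled to a common library total), respectively, from 3 counts of each total; these limits cover counting error only. All 8 macrophage markers examined (Lyz2, Cd68, Adgre1, Csf1r, Itgam, Fcgr1, Mertk and Ctsd) stood above 1 TPM in every library, with a summed level of 7730 to 8741 TPM. None of 16 markers of neutrophils, lymphocytes, stroma, erythroid cells and endothelium reached 1 TPM in every library. Their summed level was 1.18 to 1.51 TPM, and 6 of the 16 were listed at 0 in all 3 libraries. TPM, the deposited measure of transcript abundance, is corrected for transcript length and scaled to the total of each table, and protein-coding genes held 27.2% to 31.6% of it. A TPM value here is therefore lower than in a table of messenger RNAs alone.

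HSP70 proteins bind short hydrophobic stretches of unfolded proteins in cycles of ATP hydrolysis. DNAJ proteins (also called HSP40) bring clients to HSP70 and trigger its ATPase, and nucleotide exchange factors such as the HSP110 and BAG proteins reset it. HSP90 acts later, on kinases, receptors and other clients that are nearly folded, together with its own cochaperones. Chaperonins are closed barrels in which a protein folds in isolation, Hspd1 with its lid Hspe1 in mitochondria and the 8-subunit CCT ring in the cytosol, where actin and tubulin are its best-known clients. The transcription factor Hsf1 raises the inducible members on heat or other protein damage by binding heat shock elements, which are repeats of the letters GAA in alternating orientation. In macrophages, chaperones also support the folding and assembly of innate immune receptors, such as Toll-like receptors by Hsp90b1.

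Coding starts of 3 HSP70 genes are shown first, since near-identical copies limit how reads are assigned. The first 90 coding bases, built from GENCODE M21 transcripts, are given below for the inducible sister genes Hspa1a and Hspa1b and for the constitutive Hspa8, with capitals at the positions where the 3 are not all alike.
Hspa1a: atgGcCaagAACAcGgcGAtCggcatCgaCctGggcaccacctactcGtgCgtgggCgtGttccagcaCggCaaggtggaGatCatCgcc
Hspa1b: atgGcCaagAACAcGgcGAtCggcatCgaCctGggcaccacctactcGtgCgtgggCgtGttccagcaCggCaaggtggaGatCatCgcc
Hspa8: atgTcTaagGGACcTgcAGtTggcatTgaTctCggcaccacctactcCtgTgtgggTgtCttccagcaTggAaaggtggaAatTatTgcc
The stretch is identical in the sisters, and every difference sets Hspa8 apart from both. Over whole coding sequences, Hspa1a (1926 bases) and Hspa1b (1929 bases) were identical at 1918 of 1929 aligned columns (99.4%). Each was identical to Hspa8 (1941 bases) at 73.9% and 74.1% of columns, respectively. The sisters shared 1545 of their 50-base words and neither shared one with Hspa8. Reads from the shared stretches of Hspa1a and Hspa1b were split between them by the deposited estimate, so each sister's own value is uncertain.

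The sister genes are also near-identical upstream of their starts, and those bases are shown to let the few differences be seen. They lie on the minus strand of chromosome 17 (GRCm38) as single-exon genes, Hspa1a at chr17:34969190-34972156 and Hspa1b at chr17:34956436-34959238, with 9951 bases between them. The 250 bases before the start (RefSeq, GRCm38.p6) lie at chr17:34972157-34972406 and chr17:34959239-34959488, and capitals mark where they differ.
Hspa1a: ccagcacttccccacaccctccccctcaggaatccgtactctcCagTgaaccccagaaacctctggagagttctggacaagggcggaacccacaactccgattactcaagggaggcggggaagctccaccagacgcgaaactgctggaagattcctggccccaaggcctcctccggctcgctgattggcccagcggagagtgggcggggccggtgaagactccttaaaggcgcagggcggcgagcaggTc
Hspa1b: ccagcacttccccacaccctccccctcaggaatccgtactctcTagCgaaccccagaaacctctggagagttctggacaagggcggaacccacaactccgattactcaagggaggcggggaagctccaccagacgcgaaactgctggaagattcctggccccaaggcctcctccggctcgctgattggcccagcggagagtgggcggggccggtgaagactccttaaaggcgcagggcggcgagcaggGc
They were alike at 247 of 250 positions.

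A strict heat shock element of 13 bases, either GAA, any 2 bases, TTC, any 2 bases and GAA, or TTC, any 2 bases, GAA, any 2 bases and TTC (searched on both strands, with overlapping matches allowed), was sought in RefSeq windows of 300 bases, 250 before and 50 after each start. Of the 79 members, 65 had a window. Hspa8, Hsp90ab1, Hsp90aa1 and Hspa9 were among the members without one, so they were not searched. The element stood in the windows of 4 of the 65 members (6.15%), Hspd1, Hspe1, Dnajb6 and Hsph1. It stood in those of 0.575% of 16522 protein-coding genes and 0.662% of 27025 genes in the table. Hspd1 and Hspe1, on opposite strands of chromosome 1, share 1 such run. For Hspd1 it stood in the window at chr1:55087883-55088182, whereas its window at chr1:55088194-55088493 held no match. In the GENCODE annotation the 2 genes start 111 bases apart and overlap by 112 bases, and the empty window is the one at that Hspd1 start. The runs are printed on the strand of each gene with the motif in capitals.
Hspe1, chr1:55088053-55088082, plus strand: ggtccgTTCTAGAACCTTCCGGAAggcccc
Hspd1, the same bases, minus strand: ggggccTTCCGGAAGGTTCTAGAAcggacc
Dnajb6, chr5:29735844-29735872, plus strand: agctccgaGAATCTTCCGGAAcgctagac
Hsph1, chr5:149636280-149636308, minus strand: gctgcagaTTCTGGAAAGTTCtcctcagt
The Hspd1 and Hspe1 run holds 2 overlapping matches over 18 bases and the other runs hold 1 of 13 bases. The Hsph1 match lies after the listed start. The sister promoters held no match to these exact letters, and a match or its absence in this window is a description of letters, not of binding.

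Of the 79 members, 59 stood at 1 TPM or more in every library (74.7%), against 41.2% of protein-coding genes. The median member stood at 2.82 ± 0.07 (SD, n = 3) on the log2(TPM + 1) scale, against 0.21 ± 0.06 for protein-coding genes. Limited to genes averaging 1 TPM or more, the medians were 3.57 ± 0.06 for 59 members and 3.20 ± 0.13 for 9407 protein-coding genes. The members together held 2046 ± 113 TPM, which was 0.684% ± 0.019 of the TPM of protein-coding genes. The 3 highest, Hspa8, Hsp90ab1 and Hsp90b1, held 46.6% ± 0.8 of the members' TPM, and 30 members stood at 10 TPM or more in every library.

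**Figure D1:**
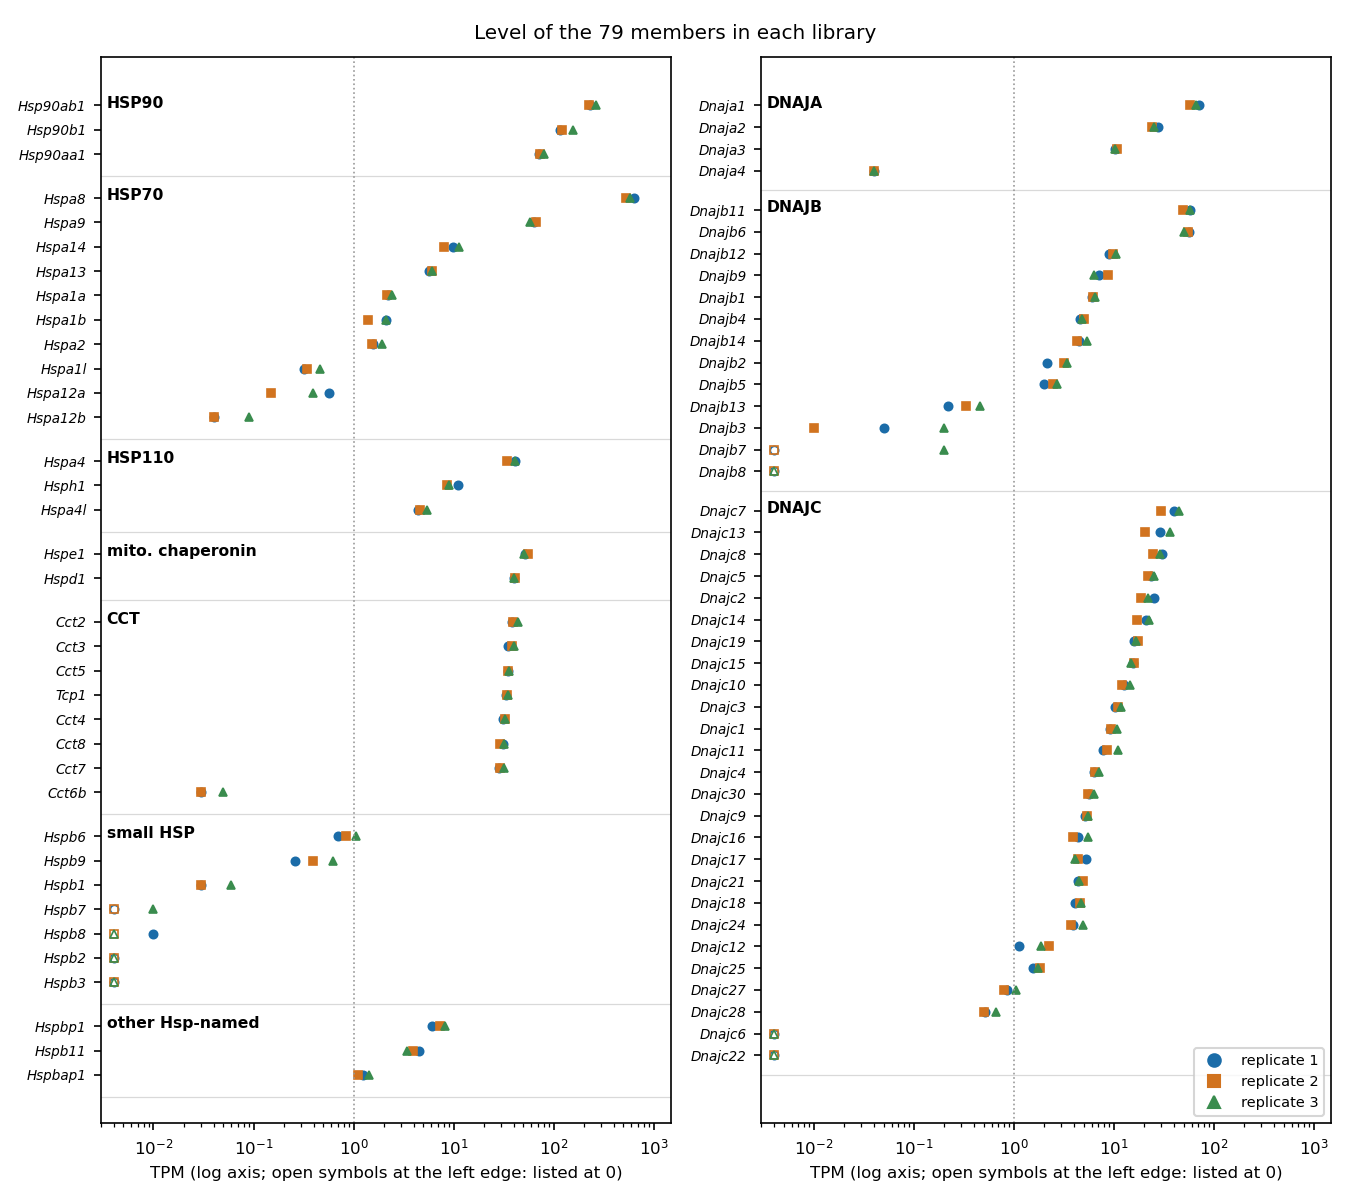
TPM (horizontal log axis) of each of the 79 members (rows, grouped by family) in replicates 1 (circles), 2 (squares) and 3 (triangles), with the dotted line at 1 TPM and open symbols for values listed at 0. Hspa8 is at the far right, at 529 to 631 TPM, the 7 CCT members between 28.7 and 43.7 TPM form a column, and the small HSPs lie mostly left of the dotted line.

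HSP70 was the family with the most RNA, and nearly all of it came from Hspa8. Its 10 members summed to 667 ± 51 TPM, 32.6% ± 1.8 of the total over members. Hspa8 (Hsc70, the constitutive cytosolic HSP70 that also strips clathrin from vesicles; chr9:40800984-40810087, plus strand) stood at 631, 529 and 583 TPM in replicates 1, 2 and 3. It was the highest member in each library. Replicate 2 was its lowest by TPM, whereas replicate 3 was lowest by scaled CPM (2080, 1965 and 1720 in replicates 1, 2 and 3). Of its leading transcript's 50-base words, 74.8% also occur in other genes, mostly processed pseudogenes, but all 13 such genes together held 5.17 to 5.58 TPM. The small nucleolar RNAs Snord14c, Snord14d and Snord14e, overlap 6.09% of its annotated exonic bases on the same strand.

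Hspa9 (mortalin, the mitochondrial HSP70) stood at 64.1, 67.5 and 58.4 TPM. Hspa14 (part of a complex bound to ribosomes) stood at 9.87, 8.08 and 11.4 TPM, and Hspa13, an HSP70-like protein of microsomes, had a mean of 5.96 TPM. Hspa2, best known from the testis, had a mean of 1.67 TPM, and Hspa1l, Hspa12a and Hspa12b each had a mean below 1 TPM. For Hspa1l, 71.9% of the exonic bases are overlapped by the opposite-strand gene Gm10501, and no source used here says if reads were counted by strand.

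The inducible sisters were present at low level in all 3 libraries. Hspa1a stood at 2.19, 2.16 and 2.43 TPM, and Hspa1b at 2.13, 1.40 and 2.10 TPM. Replicate 2 was the low one for Hspa1b, and the sisters' values differed most there. Their expected counts were far above 3, with 287, 571 and 472 for Hspa1a and 262, 348 and 384 for Hspa1b. Exons of Gm20481 overlap 19.0% of Hspa1a on the opposite strand. Hspa8 exceeded the sum of the sisters by 7.19, 7.22 and 7.01 log2 units, a mean of 7.14 ± 0.11 (SD, n = 3), or 141-fold.

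Such differences between members are compared here as log2 ratios within each library, with 7 ratios in the family of tests. An exact two-sided sign-flip permutation test over 3 libraries cannot give a p below 0.25, and each of the 7 ratios gave 0.25, raw and after Benjamini-Hochberg adjustment. Every ratio had the same sign in all 3 libraries, and the SD of each was smaller than the absolute value of its mean. Hspa8 exceeded Hspa9 by 3.20 ± 0.20 log2 units (SD, n = 3), or 9.17-fold.

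HSP90 held 447 ± 49 TPM over 3 members, or 21.9% ± 1.7 of the members' TPM. Hsp90ab1, the constitutive cytosolic HSP90, stood at 231, 226 and 268 TPM, and Hsp90aa1, its inducible partner, at 71.9, 72.8 and 80.5 TPM. The 2 genes did not overlap in level, and Hsp90ab1 exceeded Hsp90aa1 by 1.69 ± 0.05 log2 units (SD, n = 3), or 3.22-fold. Hsp90b1 (Grp94, the HSP90 of the endoplasmic reticulum, which folds Toll-like receptors and integrins) lay between them at 115, 122 and 155 TPM. Hsp90ab1 exceeded it by 0.90 ± 0.11 log2 units (SD, n = 3), or 1.86-fold. Replicate 3 gave the highest TPM of all 3 HSP90 genes, whereas replicate 2 gave the highest scaled CPM.

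The HSP110 genes, whose products act mainly as nucleotide exchange factors of HSP70, summed to 53.2 ± 4.9 TPM. Hspa4 stood at 41.0, 34.4 and 41.0 TPM, Hsph1 (Hsp105, a heat-inducible member) at 11.2, 8.58 and 8.98 TPM, and Hspa4l at 4.46, 4.59 and 5.49 TPM. The 3 did not overlap. Hspa4 exceeded Hsph1 by 2.02 ± 0.16 log2 units (SD, n = 3), or 4.07-fold.

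The small heat shock proteins, ATP-independent holders of unfolded proteins that are abundant in muscle and lens, were nearly silent. None of the 7 reached 1 TPM in every library, and together they held 1.34 ± 0.39 TPM, or 0.0653% of the members' TPM. Hspb6 was the highest at 0.70, 0.84 and 1.07 TPM, followed by Hspb9 at 0.26, 0.39 and 0.62 TPM. Hspb1 (Hsp25, the stress-inducible small HSP of many cell types) stood at 0.03, 0.03 and 0.06 TPM, from 1, 2 and 3 counts, at or below the limit that a count of 0 would allow. Hspb2 and Hspb3 had no count in any library, and Hspb7 and Hspb8 each had 1 count in all. Among the 3 other genes named after HSPs, Hspbp1, a nucleotide exchange factor of HSP70, stood at 6.07, 7.40 and 8.26 TPM. Hspb11, a component of the ciliary transport machinery despite its name, stood at 4.53, 3.90 and 3.39 TPM, and Hspbap1 at 1.25, 1.12 and 1.43 TPM.

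Apart from Cct6b, the chaperonin genes stood within a narrow range, from a mean of 29.9 TPM for Cct7 to 52.9 TPM for Hspe1. Hspe1 stood at 51.9, 56.0 and 50.6 TPM and Hspd1 at 40.4, 41.3 and 40.6 TPM, and the 2 did not overlap. The log2 ratio of Hspd1 to Hspe1 was -0.37 ± 0.06 (SD, n = 3), or 0.772-fold. They are the pair with the shared promoter run printed above. Of the words of their leading transcripts, 44.8% each occur in other genes; a locus sharing 35.2% of those of Hspe1, AC117239.2, held 0.54 to 0.69 TPM. All 7 genes with words of Hspe1 together held 41.0 to 42.5 TPM, which is little above the 40.4 to 41.3 TPM of Hspd1 alone. Exons of Hspd1 overlap 7.60% of the exonic bases of Hspe1 on the opposite strand. The part of shared reads in the level of Hspe1 was not tested. The 9 genes with words of Hspd1 held 0.25 to 0.28 TPM.

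The CCT ring is built from 1 copy of each of 8 paralogous subunits. Its genes are spread over the genome (Cct2 chr10, Cct3 chr3, Cct4 chr11, Cct5 chr15, Cct6a chr5, Cct7 chr6, Cct8 chr16 and Tcp1 chr17). Cct6a is annotated as processed_transcript in this release and is therefore not a member by the rule, but is given with the ring because it encodes the zeta subunit. In replicates 1, 2 and 3, Cct2 stood at 38.5, 39.2 and 43.7 TPM, Cct6a at 34.7, 38.5 and 47.5 TPM, and Cct3 at 34.7, 38.8 and 40.4 TPM. Cct5 stood at 34.7, 34.8 and 35.5 TPM and Tcp1, which encodes the alpha subunit, at 33.4, 33.9 and 35.4 TPM.
The lower subunits were Cct4 at 31.2, 32.5 and 33.0 TPM, Cct8 at 30.9, 29.1 and 31.9 TPM, and Cct7 at 28.7, 28.9 and 32.1 TPM. In this order of means, every pair of neighbours overlapped in range except Tcp1 and Cct4. The ratio of the highest to the lowest subunit within a library was 1.34, 1.36 and 1.49, a mean of 1.40 ± 0.08 (SD, n = 3). Cct6b, the testis paralog of Cct6a, stood at 0.03, 0.03 and 0.05 TPM, from 2, 5 and 5 counts.

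**Figure D2:**
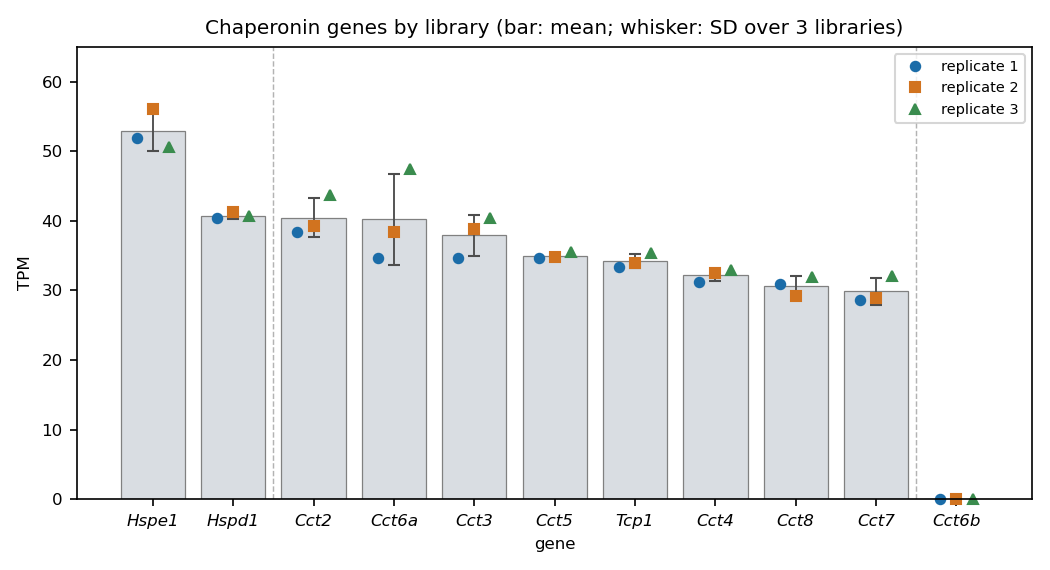
TPM (vertical axis from 0) of the mitochondrial chaperonin genes Hspe1 and Hspd1 (left of the first dashed line), the 8 CCT ring subunits and the paralog Cct6b (right of the second). Bars are means over 3 libraries, whiskers the SD and symbols the libraries; the ring subunits run from 40.5 ± 2.8 TPM (Cct2) to 29.9 ± 1.9 TPM (Cct7), and Cct6b is near 0.

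The evenness of the ring depended on the estimate. In the read-derived values, which were made from reads directly rather than from alignments, the ratio was 1.91 ± 0.03 (SD, n = 3). Cct6a was the highest subunit there in all 3 libraries, and without it the read-derived ratio was 1.59, 1.51 and 1.55. With the 7 subunits other than Cct6a and only transcripts annotated protein_coding, it was 1.73 ± 0.15. Of the TPM of Cct3, 28.3% ± 1.9 was assigned to retained-intron transcripts by alignment, against 0.40% to 3.15% in all transcripts not annotated protein_coding by reads. On values scaled to protein-coding genes, the read-derived level of Cct3 was lower by 0.43, 0.44 and 0.47 log2 units, the largest shortfall among the 59 members at 1 TPM or more.

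The DNAJ genes are the largest group, and a few of the 43 carried most of its RNA. Of these, 34 stood at 1 TPM or more in every library, and together they held 530 ± 37 TPM, 25.9% ± 0.4 of the members' TPM. Class A proteins, which share the full domain set of bacterial DnaJ, were led by Dnaja1 at 71.2, 57.8 and 66.2 TPM, followed by Dnaja2 at 27.9, 24.0 and 25.5 TPM. Dnaja3, the mitochondrial Tid1, stood at 10.4, 10.9 and 10.3 TPM, and Dnaja4 at 0.04 TPM in each library.

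Class B was led by Dnajb11 (an endoplasmic reticulum partner of the luminal HSP70) at 57.7, 48.9 and 57.7 TPM and Dnajb6 (which keeps aggregation-prone proteins soluble) at 56.6, 55.2 and 49.97 TPM. Dnajb12, a membrane protein of the endoplasmic reticulum, stood at 9.02, 9.88 and 10.5 TPM. Dnajb1 (Hsp40, the classical heat-inducible member) stood at 6.11, 6.15 and 6.48 TPM. Dnaja1 exceeded Dnajb1 by 3.38 ± 0.16 log2 units (SD, n = 3), or 10.4-fold. Dnajb3, Dnajb7, Dnajb8 and Dnajb13 each had a mean below 1 TPM.

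Class C holds diverse proteins that share only the J domain. It was led by Dnajc7 (a cochaperone that binds both HSP70 and HSP90) at 39.7, 29.6 and 44.99 TPM, Dnajc13 (an endosomal sorting factor) at 29.1, 20.5 and 36.3 TPM and Dnajc8 (a splicing-associated protein) at 30.1, 24.8 and 29.3 TPM. All 3 were lowest in replicate 2 on this scale, and by scaled CPM Dnajc8 was lowest in replicate 3. The other members of the class ranged from 0 to a mean of 23.6 TPM (Dnajc5, the synaptic vesicle cochaperone CSP alpha), and Dnajc6 (auxilin, which works with Hspa8 on clathrin coats in neurons) and Dnajc22 had no count in any library.

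By compartment, the 8 members listed as mitochondrial summed to 215 ± 7 TPM and the 9 listed for the endoplasmic reticulum to 247 ± 27 TPM. The second sum lacks Hspa5, which the rule left out, and neither list need be complete, so the sums are not totals of a compartment. All members of both lists stood above 1 TPM in every library. The endoplasmic reticulum list overlaps the unfolded protein response, in which Dnajb9, Dnajb11, Dnajc3 and Hsp90b1 are known targets. Dnajb9 stood at 7.15, 8.68 and 6.37 TPM and Dnajc3, which restrains the eIF2 alpha kinase PERK, at 10.2, 11.0 and 12.0 TPM.

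The 9 members known best as heat-inducible (Hspa1a, Hspa1b, Hsph1, Hsp90aa1, Dnajb1, Dnaja1, Hspb1, Hspd1 and Hspe1) summed to 254 ± 7 TPM, or 12.4% ± 0.4 of the members' TPM. Their levels ran from Hspb1 near 0 to Hsp90aa1 at 75.05 ± 4.76 TPM. Hspa1a, Hspa1b, Hspb1 and Dnajb1 were below 7 TPM in every library, and 8 of the 9 were above 1 TPM in every library.

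The libraries differed little over the members. Each gene averaging 10 or more rounded counts was tested by a chi-square test of homogeneity of its counts over the libraries, scaled by TMM library factors (trimmed mean of M values, edgeR), with Benjamini-Hochberg adjustment over all 13636 genes tested. The test asks whether libraries differ beyond counting noise and says nothing about a treatment. With a ratio of highest to lowest of at least 2 also required, 1 of 67 members tested was called, against 8.12% of protein-coding genes and 16.2% of all genes. At any ratio, 54 of 67 members passed (80.6%), against 75.9% of protein-coding and 75.6% of all genes. With counts this deep, small differences pass such a test: of those 54, 51 had a ratio below 1.5.

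The called member was Dnajb13, a J protein of sperm flagella, with scaled CPM of 0.466, 0.834 and 1.41 in replicates 1, 2 and 3, from 13, 44 and 69 counts. Its ratio was 2.94 and its chi-square adjusted p was 2.09e-04. On the opposite strand, exons of Ucp2 overlap 11.2% of its exonic bases, and Ucp2 held 135 to 178 TPM; the part of that overlap in the result was not tested. Without replicate 1 or without replicate 3 Dnajb13 was not called, so the call rests on those 2 libraries. Without replicate 1, Hspa12a was called in its place.

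Other members with a ratio of 1.5 or more were few. Dnajb9 had scaled CPM of 27.3, 35.5 and 20.7 and a ratio of 1.72 (chi-square adjusted p = 4.45e-43), highest in replicate 2. Dnajb2, a J protein enriched in neurons, had scaled CPM of 6.98, 10.6 and 8.66 and a ratio of 1.51 (chi-square adjusted p = 2.45e-06). Hspb9, Hspa12a and Hspa12b had larger ratios but did not pass the test, with 5 to 23 counts in each library. No member averaging 10 TPM or more was called by the chi-square test with its ratio of 2 (0 of 30), against 1.73% of 4152 such protein-coding genes. All 30 had an unadjusted chi-square p under 0.05, a cut at which no share of protein-coding genes is given here. Of all protein-coding genes tested, 75.9% passed the adjusted test at any ratio. None of the 30 had a ratio of 1.5 or more, against 11.1% of those protein-coding genes, and their median coefficient of variation over libraries was 9.98% against 11.0%.

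More members were highest in replicate 2 than in the others. By scaled CPM, 17, 40 and 10 of the 67 tested members were highest in replicates 1, 2 and 3, which is 25.4%, 59.7% and 14.9%, against 33.2%, 39.2% and 27.7% of protein-coding genes. The differences were small: the median member deviated from its mean over libraries by -0.01, 0.09 and -0.10 log2 units, and the median protein-coding gene by -0.01, 0.02 and -0.05. All 9 chaperonin members tested (7 of CCT, Hspd1 and Hspe1) were highest in replicate 2 and lowest in replicate 3, a count that was not planned. Replicate 3 was also lowest for 43 of the 67 tested members and for 43.2% of protein-coding genes. The order depends on the scale, and by TPM the 7 CCT members were highest in replicate 3. By TPM the counts were 12, 11 and 44, and protein-coding genes moved likewise, with 22.6%, 12.0% and 65.4% highest in replicates 1, 2 and 3. Protein-coding genes held 31.0%, 27.2% and 31.6% of the TPM in the 3 libraries, and the part of that share in the order was not tested.

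**Figure D3:**
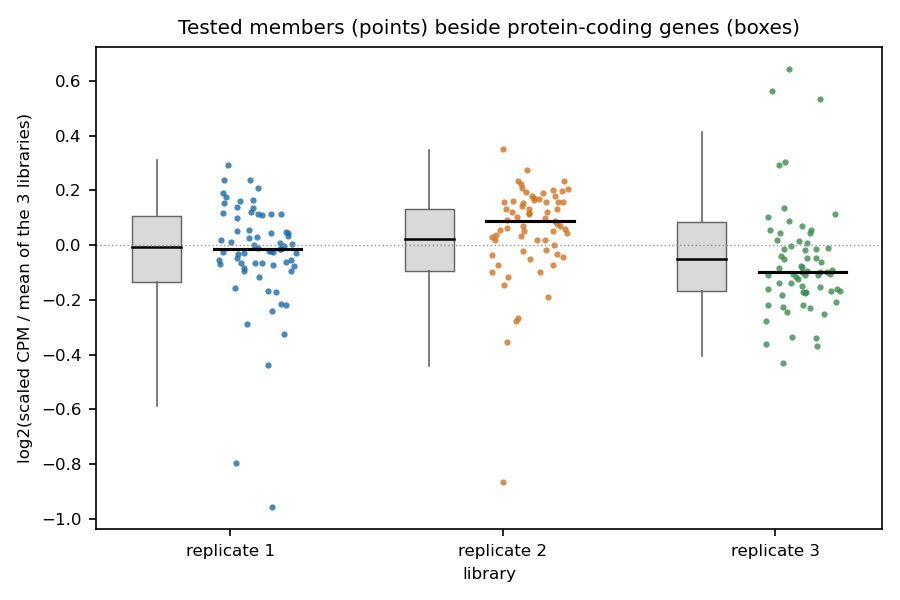
Log2 of scaled CPM in each library over the mean of the 3 libraries (vertical axis) for the 67 tested members (points, with the median as a line) and for 11540 protein-coding genes (boxes from the 25th to the 75th percentile, whiskers from the 5th to the 95th). The members' medians are -0.01, 0.09 and -0.10 in replicates 1, 2 and 3, within the boxes.

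Most members were read from coding transcripts. Over all members, 6.64% ± 1.10 of the TPM fell in transcripts not annotated protein_coding, against 7.30% ± 1.08 for protein-coding genes as a whole. The read-derived means had the opposite order, with 10.7% ± 0.9 for members and 8.73% ± 1.97 for protein-coding genes. Neither order held in every library. From alignments, replicate 1 had 7.60% for members and 6.55% for protein-coding genes. From reads, replicate 3 had 9.82% and 11.0%, respectively. Of the 59 members averaging 1 TPM or more, 41 had under 5% there and 8 had over 25%. In 56 of the 59, the same transcript led in both estimates.

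Dnajc15, a J protein of the mitochondrial inner membrane, held 90.7% ± 0.7 of its TPM in transcripts not annotated protein_coding. These were split between a nonsense-mediated decay class (45.9% ± 5.7) and processed transcripts (44.8% ± 6.3), at a gene level of 15.7, 15.8 and 15.0 TPM. Dnajc5 was led by a nonsense-mediated decay transcript at 10.8, 9.27 and 10.6 TPM, or 43.2% ± 1.7 of the gene, and stood at 23.8, 22.0 and 25.2 TPM in all. Dnajc7 held 50.1% ± 4.3 in processed transcripts.

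Retained-intron transcripts took 33.4% ± 1.7 of Hspa4, 27.3% ± 2.2 of Hsp90aa1 and 28.3% ± 1.9 of Cct3. The read-derived tables put 44.1% to 48.8% of Hspa4 and 18.6% to 30.3% of Hsp90aa1 outside protein_coding transcripts, against 32.8% to 36.8% and 25.3% to 29.6% in the same classes from alignments. For Hspa4 the read-derived share was higher in every library, and for Hsp90aa1 the ranges overlapped. The estimates also differed for Cct8, at 0.583% to 10.6% from alignments and 26.5% to 31.4% from reads, and for Tcp1, at 0.502% to 4.21% and 13.5% to 28.4%. Hspb6 and Hspa12a, both below 1 TPM on average, were led by processed transcripts in the means from alignments. For Hspb6 that transcript held 34.3%, 71.1% and 66.0% of the gene in replicates 1, 2 and 3, and a protein_coding transcript led in the read-derived values. Such shares are estimates from reads that isoforms have in common, and the deposited files do not say which reads decided them.

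**Figure D4:**
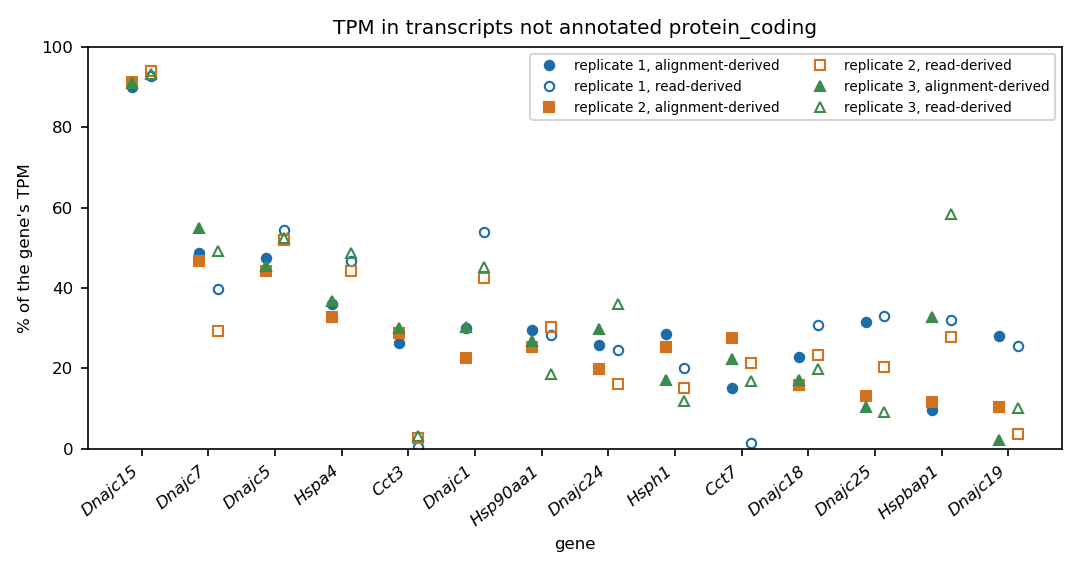
Percent of a gene's TPM in transcripts not annotated protein_coding (vertical axis) for the 14 members with 10% or more and an average of 1 TPM or more, in each library, from alignments (filled) and from reads (open). Dnajc15 is at 89.9% to 94.0% in both, whereas Cct3 is at 28.3% ± 1.9 from alignments and at 0.40% to 3.15% from reads.

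The partners of these chaperones were present as well. Of 46 genes listed as regulators, cochaperones and cofactors, 42 stood at 1 TPM or more in every library and none of 44 tested was called different between libraries by the chi-square test with a ratio of 2. At an unadjusted p under 0.05 and that ratio there was 1, and at any ratio 34 passed the adjusted test (77.3%). The shares among protein-coding genes after adjustment were 8.12% with a ratio of 2 and 75.9% at any ratio. Their share at an unadjusted p is not given here.

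Among regulators, Hsf1 stood at 4.23, 4.47 and 5.58 TPM and Hsbp1, a small protein that binds the HSF1 trimer, at 61.8, 56.6 and 66.6 TPM. In the list of BAG-named proteins and other nucleotide exchange factors, Bag1 stood at 63.7, 60.4 and 61.2 TPM and Bag6 at 38.5, 37.6 and 46.1 TPM. Whether each BAG-named protein acts as an exchange factor was not examined. The HSP70 cochaperone St13 (Hip) stood at 35.4, 38.5 and 43.2 TPM and the ubiquitin ligase Stub1 (CHIP) at 19.2, 21.2 and 30.4 TPM.
All 17 HSP90 cochaperones were above 1 TPM in every library, led by the ATPase activator Ahsa1 at 67.7, 62.2 and 73.5 TPM and the kinase adaptor Cdc37 at 41.8, 46.0 and 48.2 TPM. All 6 prefoldin subunits, which hand actin and tubulin to CCT, were above 1 TPM, led by Pfdn5 at 55.6, 49.9 and 50.7 TPM and Pfdn6 at 20.0, 21.5 and 20.5 TPM. Of the phosducin-like regulators of CCT, Pdcl3 stood at 19.9, 19.4 and 19.0 TPM and Txndc9 at 19.4, 15.0 and 19.7 TPM. Trap1, the mitochondrial HSP90, stood at 10.1, 10.8 and 13.0 TPM and the mitochondrial disaggregase Clpb at 3.38, 3.18 and 3.79 TPM. The small heat shock crystallin Cryab stood at 0.19, 0.15 and 0.29 TPM and Cryaa had no count, so these too were low.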

How the data were processed

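Per the deposited README, the tables of genes and transcripts rest on alignments to mm10 with GENCODE M21, and another transcript table was made from reads without alignment. No source used here names the aligner or quantifier. Expected counts, as deposited, are the authors' estimate of reads per gene. TPM and FPKM, as deposited by the authors, are normalised for length and library total, per the file headers. Rows of tRNA, spike-ins and phiX were left out.

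The 3 libraries form 1 group, so no conditions were compared. The members follow a rule on gene names alone, but they and the lists were chosen with earlier results of these data known. Counts were rounded and scaled by TMM (edgeR 4.0.16, R 4.3.3). The chi-square test of homogeneity took genes averaging 10 or more counts and called those with an adjusted p under 0.05 over all genes and a ratio of 2 or more (0.5 counts added). Ratios between members used exact sign-flip tests. The chi-square test was checked on simulated counts with counting noise alone, so that check does not cover further spread between libraries. Its p-values measure only differences between these libraries, and the sign-flip p could not fall below 0.25.

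Values per library are given for the 3 highest members of each family, the CCT ring, Cct6b, members of the 7 ratios, heat-inducible members, members differing between libraries, members led by a non-coding transcript and the 2 highest of each pathway list. Dnajc3, Dnajb9, Dnajb2, Hspb9 and Cryab were named after their values were seen. Shared sequence is the percent of a leading transcript's 50-base words found in other genes. Promoters are RefSeq's (GRCm38.p6), and coding sequences are GENCODE M21's. Protein sequences were not used here. Alternatives were size factors of DESeq2 1.42.0, other thresholds, filters and pseudocounts, posterior mean TPM, FPKM, read-derived values and each replicate left out. Tools were matplotlib 3.10.9, Biopython 1.88, pandas 2.3.3, scipy 1.17.1, numpy 2.4.6 and Python 3.11.15.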

Additional observations from a re-analysis of the deposited data

How the results depend on the processing

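The 7 ratios between members kept their sign under posterior mean TPM, FPKM, read-derived TPM and without each replicate. The number of members called different between libraries was 1 of 67, against 8.12% of protein-coding genes. With a mean of 50 or more counts it was 0 of 63, against 4.64%. With no filter beyond 1 count in total it was 3 of 74 (Dnajb3, Dnajb7 and Dnajb13), against 9.4%. With a ratio of at least 1.5 it was 3 of 67 (Dnajb2, Dnajb9 and Dnajb13), against 19.7%. With read-derived estimated counts it was 3 of 67 (Dnajb9, Dnajb13 and Hspa12b), against 17.8%. With a replicate left out it was 0 to 1, against 3.77% to 5.32% (0 without replicate 3, and Hspa12a in place of Dnajb13 without replicate 1). Among members with under 10% shared words it was 0, since Dnajb13 shares 10.1% (chosen after seeing the data). Called pathway genes numbered 0, and 2 with a ratio of at least 1.5 (19.7% of protein-coding genes). With a replicate left out they numbered 0 to 1 (3.77% to 5.32% of protein-coding genes). Members highest in replicate 2 numbered 40, and 11 by TPM, against 39.2% and 12.0% of protein-coding genes. Those highest in replicate 3 numbered 10, 44 by TPM and 5 by read-derived counts, against 27.7%, 65.4% and 18.9%. With another replicate left out, those highest ranged from 20 to 47 in replicate 1, 47 to 53 in replicate 2 and 14 to 20 in replicate 3. The shares of protein-coding genes there were 44.0% to 55.4%, 56.0% to 60.1% and 39.9% to 44.6%, respectively. The CCT ratio was 1.40, and 1.91 by read-derived TPM and 1.73 with protein_coding transcripts of the 7 subunits other than Cct6a (chosen after seeing the data); without Cct6a alone, also chosen then, it was 1.36. The median member at 2.82 moved to 2.62 with a pseudocount of 0.1, 4.41 rescaled to protein-coding genes, 3.46 by FPKM, 1.73 by read-derived TPM and 3.57 among members averaging 1 TPM or more. The share of the 3 highest members was 45.1% by read-derived TPM, against 46.6%, and the share in transcripts not annotated protein_coding 10.7%, against 6.64%. Causes of these shifts were not tested beyond what each alternative changes by construction. No paired analysis was possible because there is 1 group. With 3 libraries, no ratio test could pass 0.05, and members under 10 counts were not tested.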
